A study of Mus musculus with 6 samples.

Results

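The genes described here are 43 interferon-induced genes, chosen by name as targets of type I and type II interferon. All 43 had a row among the 20107 genes of the count table, and all 43 passed the filter on low counts that left 14896 genes to test. Their RNA was measured in livers of wild-type male C57BL/6N mice (Envigo) aged 16 weeks. From 8 weeks of age and for 8 weeks, littermates had free access either to Chow (replicates 7, 8 and 9) or to the HFHC diet (replicates 1, 2 and 3), a high-calorie food rich in fat and containing fructose, given with a high-fructose drink. Each diet had 3 mice, the labels name no other agent or allele, and the comparison addresses how the regimen changes liver gene expression.

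Interferons are secreted proteins that cells release when they sense viral nucleic acid or, for interferon gamma, when lymphocytes are activated. Type I interferon acts through the kinases JAK1 and TYK2 on a transcription factor complex that includes STAT2 and IRF9 and binds the interferon-stimulated response element (ISRE) in promoters, while interferon gamma acts mainly on gamma-activated sites (GAS). The induced genes encode sensors of foreign RNA and DNA, transcription factors that sustain the response, antiviral effectors, GTPases of cell-autonomous defence and chemokines, and in the liver hepatocytes, Kupffer cells and endothelial cells can all express them.

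The promoters of 32 of the 43 members matched a RefSeq window (GRCm38.p6) from 250 bases before to 50 bases after the gene's start. Dhx58, Zbp1, Usp18, Oas2, Mx1, Mx2, Gbp6, Iigp1, Parp9, Parp14 and Ifi27 had none there. The ISRE was searched as GAAANNGAAA, which reads TTTCNNTTTC on the other strand, and it occurred in 19 of the 32 member windows (59.4%) and in 3.99% of the 27025 genes with a window. The GAS, searched as TTCNNNGAA and the same on both strands, occurred in 8 of the 32 (25.0%) and in 9.55% of all genes, and only in the Bst2 window did matches to the 2 motifs overlap. A match describes letters and not a bound site.

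The stretches that follow are 70 bases each, all upstream of the annotated start, on the gene's own strand and 5′ to 3′, and capitals mark the ISRE matches. The first set shows members that were higher in HFHC: Ifit1 (chr19:34640764-34640833, plus strand), Ifit3 (chr19:34583360-34583429, plus strand), Oas1a (chr5:120907526-120907595, minus strand) and Gbp3 (chr3:142559956-142560025, plus strand). In Oas1a and Gbp3 the 2 matches share bases and read as 1 run of capitals.
Ifit1: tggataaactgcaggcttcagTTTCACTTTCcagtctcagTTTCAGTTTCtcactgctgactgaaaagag
Ifit3: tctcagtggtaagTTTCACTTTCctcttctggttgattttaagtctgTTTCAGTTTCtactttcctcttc
Oas1a: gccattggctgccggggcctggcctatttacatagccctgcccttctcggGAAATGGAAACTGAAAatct
Gbp3: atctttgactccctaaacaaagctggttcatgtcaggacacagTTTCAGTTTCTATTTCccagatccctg

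The second set shows members that did not pass the test, to be read beside the first. Ifit3b (chr19:34607756-34607825, plus strand) and Oas1g (chr5:120887614-120887683, minus strand) are near copies of Ifit3 and Oas1a, and Isg15 (chr4:156200851-156200920, minus strand), Bst2 (chr8:71537560-71537629, minus strand) and Igtp (chr11:58199486-58199555, plus strand) had log2 fold changes from near 0 to 0.67.
Ifit3b: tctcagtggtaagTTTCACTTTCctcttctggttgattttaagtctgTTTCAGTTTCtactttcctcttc
Oas1g: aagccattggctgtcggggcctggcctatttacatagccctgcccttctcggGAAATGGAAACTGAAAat
Isg15: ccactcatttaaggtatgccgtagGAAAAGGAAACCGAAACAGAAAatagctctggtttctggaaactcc
Bst2: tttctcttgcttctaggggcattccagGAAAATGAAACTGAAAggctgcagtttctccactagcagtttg
Igtp: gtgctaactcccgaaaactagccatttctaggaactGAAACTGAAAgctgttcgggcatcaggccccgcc
The Ifit3 and Ifit3b stretches were identical in 70 of 70 bases, and those of Oas1a and Oas1g in 67 of the 68 bases that could be compared. Over the upstream parts of the whole windows, compared without gaps, identity was lower: 188 of 218 bases for Ifit3 and Ifit3b and 158 of 248 for Oas1a and Oas1g. Isg15 had 3 overlapping matches, more than any other stretch shown, and Bst2 had 2.

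The libraries held 30096409 to 30871297 counts in HFHC and 26767416 to 27339613 in Chow. Levels are CPM, counts scaled to TMM-adjusted library sizes, 1 read stood for 0.0318 to 0.0379 CPM, and 3 counts, taken as a floor for counting error, for 0.0954 to 0.114 CPM. Changes are log2 fold changes of HFHC over Chow ± standard error, and every adjusted p is a Benjamini-Hochberg value from edgeR's quasi-likelihood F test, computed across the 14896 genes and read against a threshold of 0.05. The 8 hepatocyte markers, Alb among them, summed to 87421 to 90011 CPM in HFHC and 81575 to 101616 CPM in Chow, overlapping between diets. Of the 8, edgeR called 3 lower in HFHC, Apob, Tat and Cps1, and 0 higher, against 3.3% and 3.38% of all tested genes. Another 3 of the 8 had log2 fold changes above 0, of which 1 was higher at an unadjusted p under 0.05. In whole liver, fewer cells of a type and less RNA per cell cannot be told apart.

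In HFHC livers 11 of the 43 members were higher and 0 were lower. The 11 were Oasl1, Cxcl9, Ifi44, Oas1a, Ifit3, Gbp3, Irf7, Dhx58, Gbp2, Parp9 and Ifit1, with log2 fold changes from 0.37 to 1.17. They made up 25.6% of the members, where 3.38% of all tested genes were called higher and 3.3% lower. The members were chosen with earlier results of these data known, so this share and those that follow are descriptive and not a test. At an unadjusted p under 0.05, 25 members (58.1%) were higher and 0 lower, where the shares over all genes were 10.8% higher and 11.5% lower. Every HFHC library lay above every Chow library for 23 members (53.5%, against 13.5% of all genes) and below for 0 (against 14.3%). The median log2 fold change was 0.37 over the members and -0.0033 over all tested genes, and 40 members were above 0 against 49.5% of all genes. Most changes were small: 3 members reached 2-fold, and 2 of the called ones, Irf7 and Parp9, changed by less than 1.5-fold. Of the members with a promoter window, the ISRE letters were found in 5 of the 9 called and in 14 of the 23 not called.

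**Figure D1:**
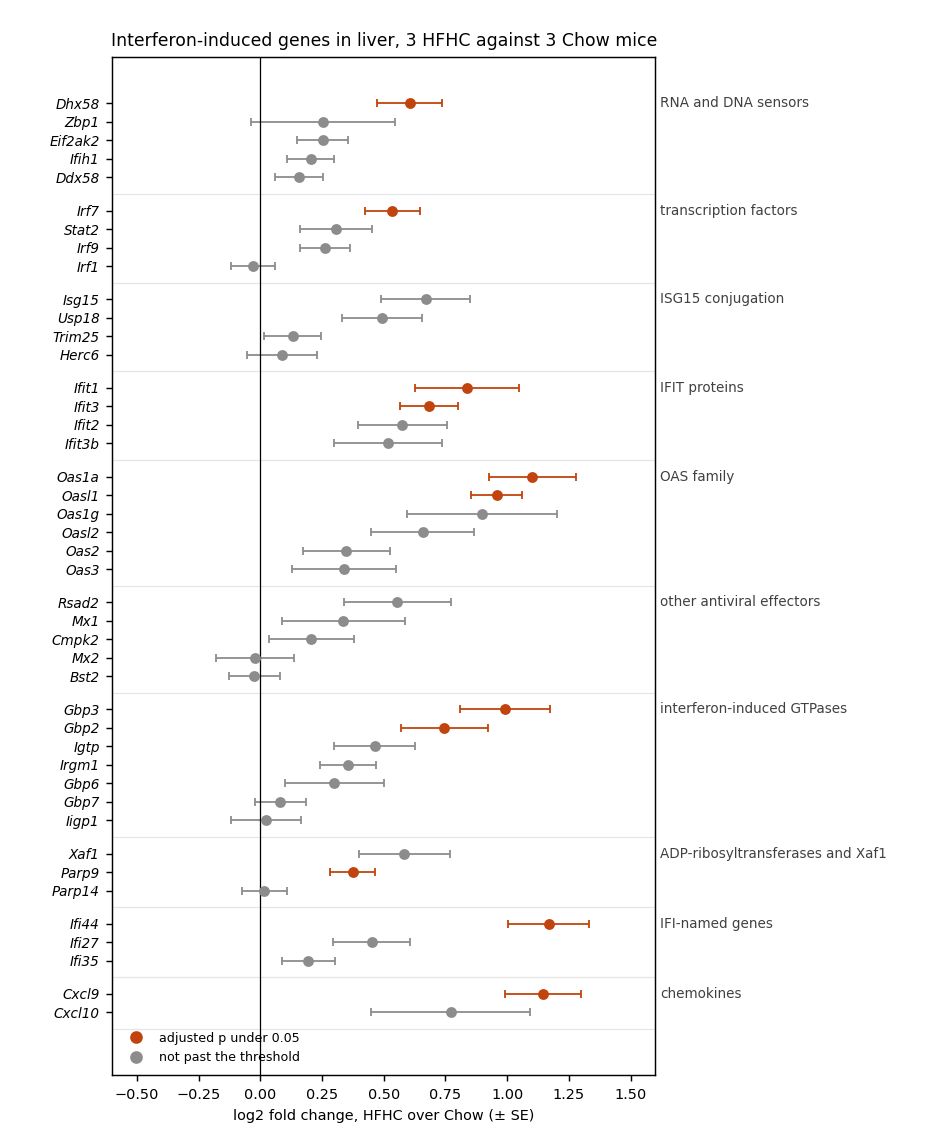
Log2 fold change of HFHC over Chow (x axis) with its standard error for each of the 43 members, grouped by role; red points passed an adjusted p of 0.05 in edgeR's test. The 11 red points lie between 0.37 and 1.17, and 40 of the 43 points lie above 0.

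Among the 5 sensors, Dhx58 was called. Dhx58 encodes LGP2, a helicase that modulates RNA sensing by RIG-I and MDA5. Its level was 13.3, 12.6 and 15.9 CPM in HFHC replicates 1, 2 and 3 and 9.14, 10.4 and 7.96 CPM in Chow replicates 7, 8 and 9. The diets did not overlap, with HFHC replicate 3 highest and Chow replicate 9 lowest. The change was 0.61 ± 0.13 (edgeR adjusted p = 0.0275). The receptors it acts with gave 0.20 ± 0.10 for Ifih1 (MDA5) and 0.16 ± 0.10 for Ddx58 (RIG-I), neither past the threshold. Eif2ak2, the kinase PKR that halts translation on viral RNA, gave 0.25 ± 0.10, and Zbp1, a sensor of Z-form nucleic acid, 0.25 ± 0.29, also without a call.

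Of the 4 transcription factors, Irf7 was called. IRF7 is a factor that drives interferon alpha genes and is itself induced by interferon. Irf7 was at 36.1, 34.6 and 39.5 CPM in the HFHC libraries and at 26.4, 28.3 and 21.4 CPM in the Chow libraries. No Chow library reached the lowest HFHC library, and Chow replicate 9 lay furthest below. The change was 0.53 ± 0.11 (edgeR adjusted p = 0.0231). The 2 members that act in the type I complex were not called: Stat2 gave 0.31 ± 0.15, with Chow replicate 8 (67.3 CPM) inside the HFHC range, and Irf9 gave 0.26 ± 0.10. Irf1, a factor induced mainly by interferon gamma, gave -0.03 ± 0.09, with means of 22.7 ± 1.01 CPM on HFHC and 23.1 ± 1.77 CPM on Chow (SD, n = 3).

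None of the 4 genes of ISG15 conjugation passed the threshold in edgeR, where 2 of them, Isg15 and Usp18, were under 0.05 before adjustment and DESeq2 called Isg15. Isg15, the ubiquitin-like protein itself, had the smallest p. It was at 9.80, 9.0 and 14.5 CPM in HFHC and at 7.74, 6.89 and 6.30 CPM in Chow. The diets did not overlap, but HFHC replicate 3 stood well above the other HFHC libraries, and the change of 0.67 ± 0.18 had an edgeR adjusted p of 0.0592. Usp18, the protease that removes ISG15 and restrains the type I receptor, gave 0.49 ± 0.16, and the ligases Trim25 and Herc6 gave 0.13 ± 0.11 and 0.09 ± 0.14.

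The 4 IFIT genes encode proteins that bind foreign RNA and block its translation, and all 4 had every HFHC library above every Chow library. Ifit3 was at 19.4, 20.0 and 24.4 CPM in HFHC and at 13.7, 14.1 and 12.0 CPM in Chow, a change of 0.68 ± 0.12 (edgeR adjusted p = 0.00999). Ifit1 was at 12.7, 16.7 and 24.6 CPM in HFHC and at 10.4, 10.8 and 9.09 CPM in Chow, a change of 0.84 ± 0.21 (edgeR adjusted p = 0.047). In both, HFHC replicate 3 was highest and Chow replicate 9 lowest, and for Ifit1 the HFHC libraries spread over a 1.94-fold range against 1.19-fold in Chow. Ifit2 gave 0.58 ± 0.18 and Ifit3b 0.52 ± 0.22, neither called by edgeR, while DESeq2 called Ifit2. Values of Ifit3 and Ifit3b were not whole in any library, as estimated counts are when reads are split between alike genes, so their separate levels are uncertain. Their sum was 25.8 ± 3.45 CPM in HFHC and 16.4 ± 1.96 CPM in Chow (SD, n = 3), with no overlap between diets.

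The OAS family makes 2-5A, the activator of RNase L, on sensing viral RNA, while the OAS-like protein Oasl1 has another role in antiviral defence. Oasl1 had the smallest p of all members. It was at 20.3, 20.9 and 19.9 CPM in HFHC and at 9.94, 11.9 and 9.58 CPM in Chow, with a tight HFHC group and wide separation. The change was 0.96 ± 0.10 (edgeR adjusted p = 0.00128). Oas1a was at 3.79, 4.42 and 4.06 CPM in HFHC and at 2.28, 1.85 and 1.58 CPM in Chow, a change of 1.10 ± 0.18 (edgeR adjusted p = 0.00807). Here too the diets did not overlap, and in both genes HFHC replicate 2 rather than 3 was highest. Oasl2 (0.66 ± 0.21), Oas1g (0.90 ± 0.30), Oas2 (0.35 ± 0.18) and Oas3 (0.34 ± 0.21) were not called by edgeR. DESeq2 called Oasl2. Oas1g is a near copy of Oas1a and both had values that were not whole, so their sum was also taken: 5.46 ± 0.646 CPM in HFHC against 2.64 ± 0.54 CPM in Chow (SD, n = 3), again without overlap.

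None of the 5 other antiviral effectors was called by edgeR, limma-voom or DESeq2, and 1 of them, Rsad2, was under 0.05 before adjustment in edgeR. Rsad2, which encodes viperin, an enzyme that makes a chain-terminating nucleotide, was at 10.8, 19.8 and 17.0 CPM in HFHC and at 11.1, 12.8 and 8.52 CPM in Chow. HFHC replicate 1 fell among the Chow libraries, and the change of 0.55 ± 0.22 had an edgeR adjusted p of 0.169. Cmpk2, the nucleotide kinase encoded next to it, gave 0.21 ± 0.17. Bst2 (tetherin, which holds budding virions on the cell) gave -0.02 ± 0.10. Mx1 and Mx2, the dynamin-like antiviral GTPases that the table types as polymorphic pseudogenes, gave 0.34 ± 0.25 and -0.02 ± 0.16. The sum of Mx1 and Mx2 was 6.14 ± 0.642 CPM in HFHC and 5.87 ± 1.04 CPM in Chow (SD, n = 3), with overlapping diets.

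The 7 interferon-induced GTPases belong to families that act in cell-autonomous defence against intracellular pathogens, and 2 of the guanylate-binding proteins were called. Gbp3 was at 8.59, 10.3 and 14.2 CPM in HFHC and at 6.11, 5.40 and 5.09 CPM in Chow, a change of 0.99 ± 0.18 (edgeR adjusted p = 0.0147). Gbp2 was at 5.25, 5.32 and 6.61 CPM in HFHC and at 4.25, 2.94 and 3.05 CPM in Chow, a change of 0.74 ± 0.18 (edgeR adjusted p = 0.0383). Neither gene's diets overlapped, and HFHC replicate 3 was highest in both. Their neighbour Gbp7 (0.08 ± 0.10) and the related Gbp6 (0.30 ± 0.20) were not called, nor were the immunity-related GTPases Irgm1 (0.36 ± 0.11), Igtp (0.46 ± 0.16) and Iigp1 (0.02 ± 0.14). Iigp1 was the member with the most CPM, 376 ± 72.1 in HFHC and 371 ± 47.5 in Chow (SD, n = 3), and its values were not whole in any library.

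Parp9, which works with the ubiquitin ligase Dtx3l in the interferon response, was at 69.9, 72.6 and 83.5 CPM in HFHC and at 57.3, 61.8 and 55.1 CPM in Chow. The diets did not overlap, and the change was the smallest of the called members, 0.37 ± 0.09 (edgeR adjusted p = 0.0416). Parp9 shares 9.40% of its exonic bases with Dtx3l on the opposite strand, and Dtx3l was also higher. Parp14, another ADP-ribosyltransferase, gave 0.02 ± 0.09, and Xaf1, a pro-apoptotic gene, 0.58 ± 0.19, both without a call.

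Ifi44, a gene long used as a marker of interferon exposure, had the largest change of the 43 members. It was at 4.83, 5.16 and 6.27 CPM in HFHC and at 2.28, 2.76 and 2.19 CPM in Chow, so that every HFHC library lay well above every Chow library. The change was 1.17 ± 0.16 (edgeR adjusted p = 0.00449). Ifi27 gave 0.45 ± 0.16 and Ifi35 0.19 ± 0.11, both with overlapping diets and no call by edgeR, while DESeq2 called Ifi27.

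The chemokine Cxcl9, which attracts CXCR3-bearing T cells and is driven by interferon gamma, was at 9.73, 10.5 and 13.7 CPM in HFHC and at 5.35, 4.50 and 5.51 CPM in Chow. All 3 HFHC libraries were clear of the Chow range, and the change was 1.14 ± 0.15 (edgeR adjusted p = 0.00379). Cxcl10, its neighbour and a ligand of the same receptor, gave 0.77 ± 0.32 with overlapping diets, since HFHC replicate 1 at 1.75 CPM lay among the Chow libraries, and it was not called.

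**Figure D2:**
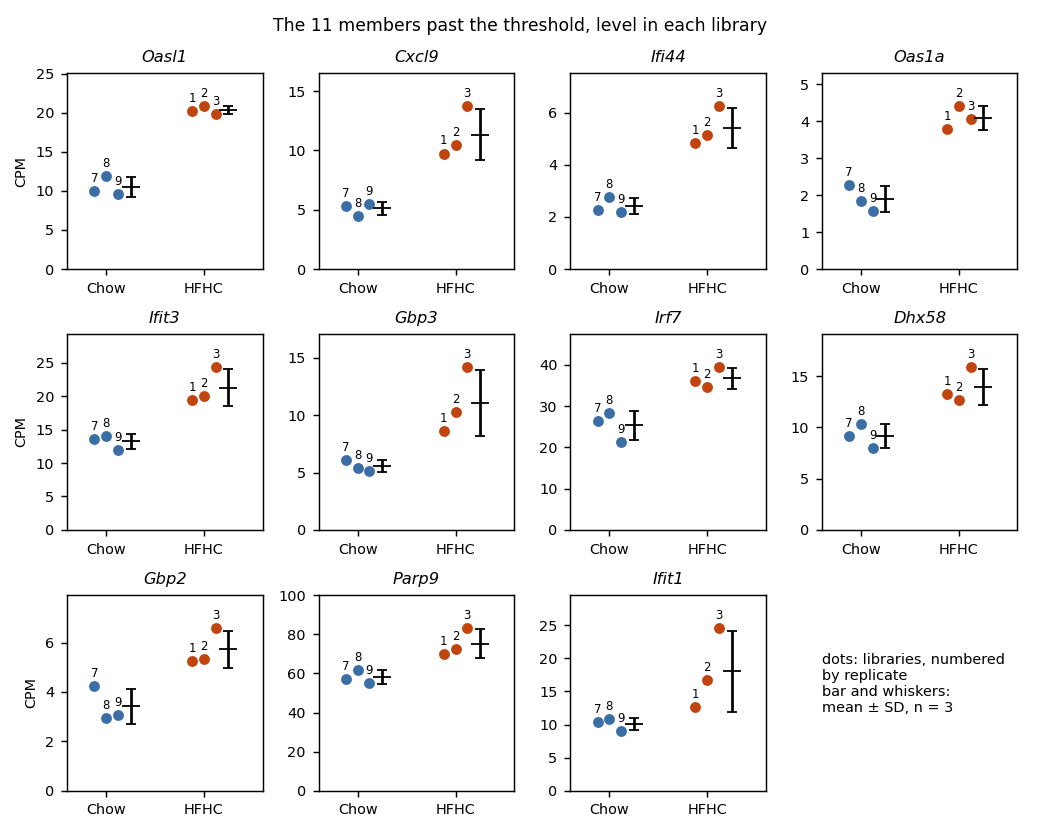
CPM in each library for the 11 called members, with Chow in blue, HFHC in red, replicate numbers beside the points, and mean ± SD (n = 3); every axis starts at 0. No panel has overlapping diets, and HFHC replicate 3 is the highest of the 6 libraries in 9 of the 11.

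The members did not move evenly across the mice. HFHC replicate 3 was the highest HFHC library in 33 of the 43 members, where it was highest in 36.1% of all genes. HFHC replicate 1 was the lowest in 27 (29.2% of all genes). In Chow, replicate 9 was the lowest in 29 (30.7% of all genes) and replicate 8 the highest in 24 (35.3%). The median deviation of the members from their own diet's mean was 0.18 on the log2 scale in HFHC replicate 3 and -0.12 in HFHC replicate 1, and -0.14 in Chow replicate 9. The same medians over all genes lay between -0.0073 and 0.0074 in the 6 libraries.

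**Figure D3:**
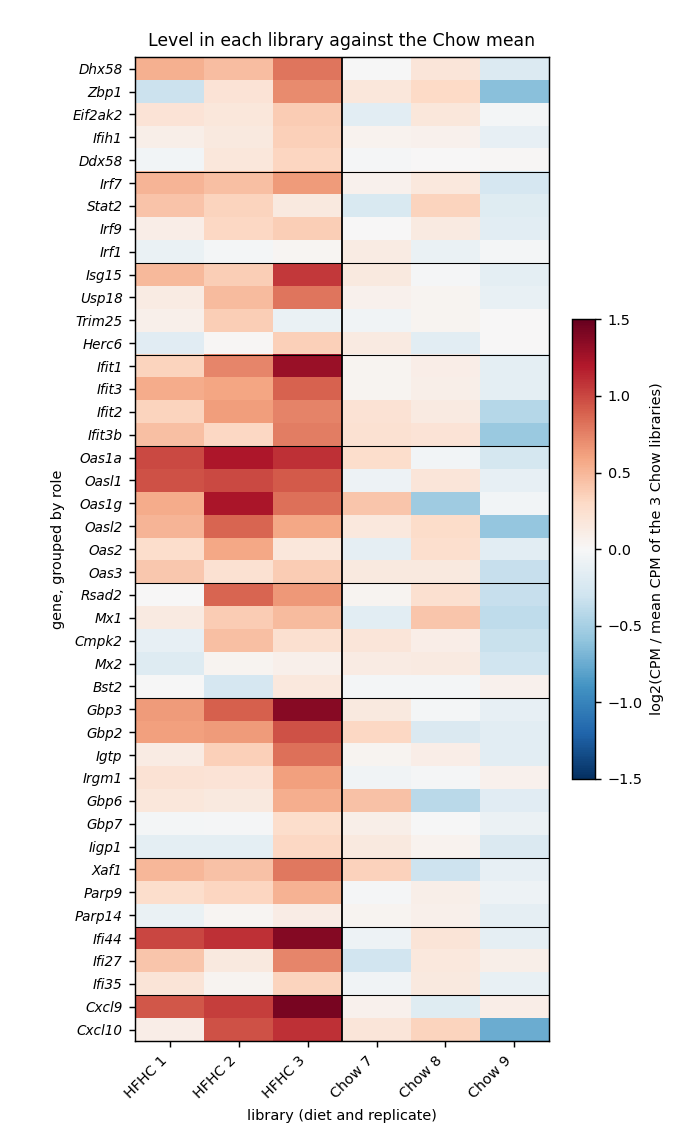
Log2 ratio of each library's CPM to the mean of the 3 Chow libraries (color) for the 43 members in rows, grouped by role, and the 6 libraries in columns. HFHC replicate 3 is the highest HFHC library in 33 rows and Chow replicate 9 the lowest Chow library in 29.

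With each library left out in turn, 5 to 10 members were called. Without Chow replicate 9 there were 5, without HFHC replicate 3 there were 6, without HFHC replicate 2 or Chow replicate 7 there were 7, without HFHC replicate 1 there were 8, and without Chow replicate 8 there were 10. Oasl1, Ifi44, Cxcl9, Oas1a and Ifit3 were called in all 6 of these fits. Gbp3 was lost only without Chow replicate 9 (edgeR adjusted p = 0.0556), and Dhx58 was kept only without HFHC replicate 2 or Chow replicate 8. Irf7 and Parp9 were kept only without Chow replicate 8, Ifit1 only without HFHC replicate 1 and Gbp2 only without Chow replicate 7. limma-voom also lost Ifit1, and a fit with GC and length trends taken out lost Dhx58. Stat2 became called without Chow replicate 8 (edgeR adjusted p = 0.0174) and Usp18 without HFHC replicate 1 (edgeR adjusted p = 0.0463).

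Per kilobase of annotated exon, the members' mean Chow levels ran from 0.190 CPM for Oas3 to 86.9 CPM for Bst2, followed downward by Iigp1 (63.7) and Ifi27 (39.4). The called members lay from 0.393 CPM per kb (Ifi44) to 11.9 (Parp9), and edgeR called none of the 3 most abundant members per kb, of which DESeq2 called Ifi27. In CPM, 23 members had a Chow mean of at least 10, of which 5 were called, and 13 had a Chow mean under 5.

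**Figure D4:**
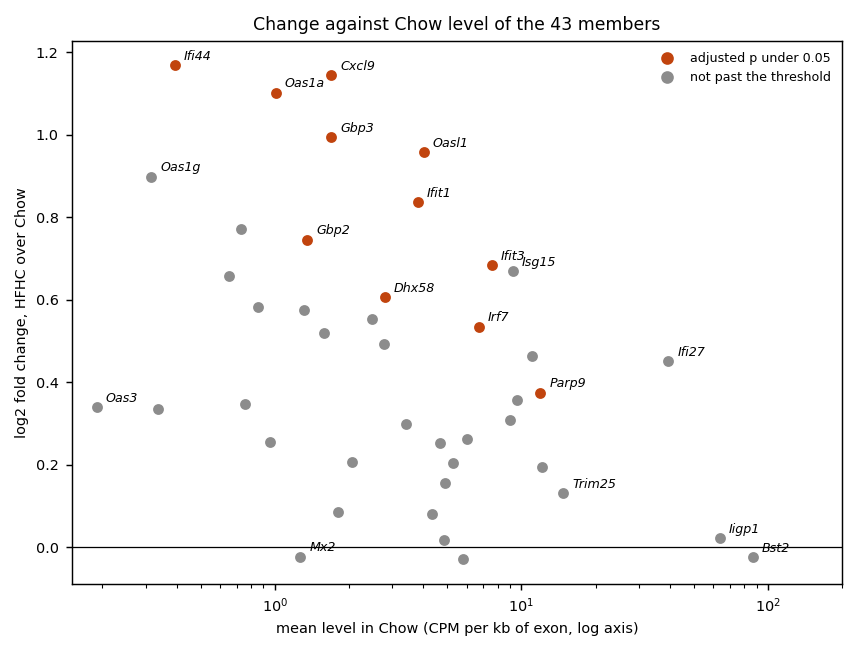
Mean Chow level in CPM per kb of exon (x axis, log scale) against the log2 fold change of HFHC over Chow (y axis) for the 43 members, with those called by edgeR in red. The members at the right, Bst2, Iigp1 and Ifi27, were not called by edgeR, and those it called lie between 0.393 and 11.9 CPM per kb.

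Several members lie side by side in the genome (GRCm38, GENCODE M21 gene bounds), and neighbours did not always have the same call. On chromosome 19, Ifit2, Ifit3, Ifit3b and Ifit1 (34550694 to 34650009) ranged from 0.52 to 0.84 with 2 called. On chromosome 5, Oas2, Oas3, Oas1g and Oas1a (120730333 to 120907521) ranged from 0.34 to 1.10 with 1 called, and Oasl2 and Oasl1 (114896936 to 114937915) gave 0.66 and 0.96 with 1 called. On chromosome 3, Gbp7, Gbp3 and Gbp2 (142530342 to 142638008) ranged from 0.08 to 0.99 with 2 called. Whether neighbours differed from each other was not tested.

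Of the adaptors, kinases and nucleases of nucleic acid sensing, which lies upstream of interferon release, 22 were tested and 0 called by edgeR in the reported fit. At an unadjusted p under 0.05, 3 were higher and 2 lower, where the shares over all genes were 10.8% and 11.5%, so these counts were near the background. The smallest p was that of Samhd1, a nuclease that depletes deoxynucleotides, at 0.37 ± 0.10 (edgeR adjusted p = 0.0504), and DESeq2 and limma-voom called 1 gene of the list, Samhd1. edgeR also called Samhd1 with RLE (edgeR adjusted p = 0.0498) or upper-quartile size factors (0.0394). It did so too with GC and length trends taken out (0.0400) and without Chow replicate 8 (0.0270). With no size factors (0.0581), no count filter (0.0536) or any other library left out, Samhd1 was not called. Of the interferon genes themselves Ifng alone had a row, at 0 to 0.101 CPM and too low to test, and the others on the list were not analysed here.

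A second list held 58 further interferon-induced genes, of which 56 were tested. The test called 4 higher and 1 lower, where the shares over all genes were 3.38% and 3.3%. The median log2 fold change was 0.22 against -0.0033 over all genes, and 49 were above 0 against 49.5% of all genes. The 4 higher were Dtx3l, the ubiquitin ligase partner of Parp9, at 0.52 ± 0.08 (edgeR adjusted p = 0.00836), Shisa5 at 0.37 ± 0.08, Lgals3bp, a secreted galectin-binding protein, at 0.45 ± 0.10, and Uba7, the E1 enzyme that activates ISG15, at 0.42 ± 0.10. With each library left out in turn 1 to 3 of this list were called higher, and with trends on GC content and length taken out 1 was. Dtx3l was called in all 6 of those left-out fits, Uba7 in 0, Shisa5 only without HFHC replicate 3 and Lgals3bp only without Chow replicate 8. Ifitm2, of the membrane proteins that block viral entry, was the 1 lower. It was at 58.8, 48.5 and 53.8 CPM in HFHC and at 87.1, 73.8 and 86.4 CPM in Chow, without overlap, and fell by 0.62 ± 0.10 on the log2 scale (edgeR adjusted p = 0.00837), also in all 6 left-out fits. Ifitm2 shares 40.9% of its exonic bases with Gm45717 on the same strand, so its level is uncertain. Its family member Ifitm3 gave 0.27 ± 0.10 without a call.

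Markers of cells that can carry interferon-induced RNA were read beside the members. The 12 Kupffer cell and macrophage markers summed to 381 to 468 CPM in HFHC and 331 to 392 CPM in Chow, overlapping between diets, and HFHC replicate 3, highest for most members, was highest here too. Of the 12, 0 were called by edgeR, DESeq2 or limma-voom. At an unadjusted p under 0.05 in edgeR 5 were higher and 0 lower, where the shares over all genes were 10.8% and 11.5%. Every HFHC library lay above every Chow library for 5 and below for 0, against 13.5% and 14.3% of all genes. The 5 recruited monocyte markers summed to 7.09 to 10.2 CPM in HFHC and 5.54 to 6.22 CPM in Chow, without overlap and again with HFHC replicate 3 highest. Of the 4 tested, 0 were called by any of these tools. At an unadjusted p under 0.05 in edgeR 2 were higher and 0 lower, and 3 of the 4 had every HFHC library above every Chow library. T and NK cell markers summed to 3.36 to 5.06 CPM in HFHC and 3.81 to 5.05 CPM in Chow, with Gzmb at 0 in Chow replicate 9. Of these 11 markers only 2 were tested, and 0 were called by edgeR, DESeq2 or limma-voom. Every HFHC library lay below every Chow library for 1 of the 2 and above for 0. B cell markers summed to 14.7 to 21.8 CPM in HFHC and 7.16 to 9.87 CPM in Chow. This difference was carried by Ighm at 1.45 ± 0.24 (edgeR adjusted p = 0.00874). The other 4 B cell markers were not called, 3 of the 5 were above 0, and the lowest log2 fold change was -0.25. The 7 sinusoidal endothelial markers summed to 237 to 264 CPM in HFHC and 245 to 260 CPM in Chow, overlapping between diets, with HFHC replicate 3 lowest. Of the 7, 0 were called by edgeR, DESeq2 or limma-voom, and 4 had log2 fold changes above 0. Sums of plasmacytoid dendritic cell, neutrophil, hepatic stellate cell and cholangiocyte markers also overlapped between diets. The part of these cells in the members' changes was not tested.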

How the data were processed

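RNA was measured in 6 livers, 3 per diet. Per the labels' protocols, libraries were made with a stranded total RNA kit after ribosomal RNA depletion. Per the submitters' processing notes, STAR 2.7.3a, Partek 9 and mm10 were used. Not given in the sources used here: counting settings, strand and annotation. The authors deposited a table of estimated counts per gene, made from the aligned reads and not normalized, of which 22.4% were not whole (tolerance 0.01).

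Counts were rounded. The filter (filterByExpr, minimum count 10) left 14896 genes. edgeR 4.0.16 fitted diet with TMM factors and a quasi-likelihood F test. The SE was the log2 fold change divided by the square root of F. The labels name no batch or pairing and do not give the litter of each mouse, so no covariate was used. Any litter effect is therefore not modelled, and the p values reflect only the variation among these mice. DESeq2 1.42.0, limma 3.58.1 (voom), other size factors and filters, thresholds and each library left out were tried as alternatives. A fit with GC and length trends taken out was chosen after seeing the data. R 4.3.3, Python 3.11.15, pandas 2.3.3 and numpy 2.4.6 were used.

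The members and lists were chosen with earlier results of these data known. Values per library were given for every called member and, in each role with none, for the member with the smallest p; of each pathway list the called genes (at most 10), or else the smallest p. The other members' estimates account for all 43. Ifitm3, Ighm, Gzmb, Apob, Tat and Cps1 were named after their values were seen. A result that the rule gave is not reported here. Gene bounds came from GENCODE M21 and promoters from RefSeq.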

Additional observations from a re-analysis of the deposited data

How the results depend on the processing

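The count of 11 members called higher was 11 under other size factors, both other filters and unrounded counts, 15 by DESeq2, and 10 by limma-voom, by limma-voom with sample weights and with GC and length trends taken out. It was 5 at an adjusted p under 0.01, 16 at 0.10, and 5 to 10 with a library left out. Among the 22 members that share no exonic bases with another gene and had a whole value in at least 1 library it was 4: Ifit1, Gbp3, Ifi44 and Cxcl9. No member was called lower in any of these settings. The median log2 fold change of the members was lowest, 0.31, when HFHC replicate 3 was left out and highest, 0.52, when Chow replicate 8 was left out, and 34 members were above 0 in every fit. The 994 genes called over the whole table became 361 to 1080 with a library left out, 1494 by limma-voom with sample weights, 282 at 0.01 and 1721 at 0.10. The 4 further interferon-induced genes called higher became 1 to 3 with a library left out, 1 with GC and length trends taken out, 1 at 0.01 and 8 at 0.10. Of 360 values under other settings of the 20 genes that the naming rule gave, 288 stayed on their side of the threshold, 62 no longer passed, 10 newly passed and 0 changed sign. DESeq2 added Isg15, Ifit2, Oasl2 and Ifi27, limma-voom lost Ifit1, and the fit without GC and length trends lost Dhx58. No paired analysis was possible because the labels name no pairing and do not give the litter of each mouse. With 3 mice per diet, the fit rests on few animals; counting error matters most for members such as Oas1g and Mx1, near 1 CPM, and members that share exonic bases or near copies have uncertain levels. The causes of these differences were not tested.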
